A study of Mus musculus with 9 samples.

Results

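Of the 4291 circular RNAs (circRNAs) with enough counts to be classed, 91 passed set limits for a transiently low level in differentiative progenitors (DP). Their mean level was lower in DP than in proliferative progenitors (PP) and newborn neurons (N) of the embryonic mouse cortex, sampled at E14.5. Without these limits, 716 of the 4291 (16.7%) had a lower mean in DP than in both. The 91 were selected on measured values of the same 9 libraries. CPM values, the counts per 1000000 of a library without 27 entries described further on, were averaged over the 3 libraries of each cell type, and a circRNA was kept when its mean count over the 9 libraries was at least 8, its DP/PP ratio at most 0.67 and its N/DP ratio at least 1.5. The deposited table held 5281 circRNAs in all. The fall from PP to DP and the rise from DP to N are therefore given as a description, and no test of either step is read as evidence for the 91.

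The cells came from the lateral cortex of C57BL/6 embryos that carried the Btg2-RFP and Tubb3-GFP reporters, and all 3 cell types shared both reporters. PP were sorted as negative for RFP and GFP, DP as RFP-positive and GFP-negative, and N as GFP-positive whatever their RFP, so each population is a sort gate and not a pure cell type. Total RNA was treated with RNase R, an exonuclease that degrades linear RNA, before strand-specific sequencing, with 3 biological replicates of each population. Whether each replicate was 1 embryo or a pool is not given in the sources used here, and fewer cells of a type in a gate cannot be told apart from less RNA per cell.

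A circRNA forms when the spliceosome joins the end of a downstream exon to the start of an upstream exon, a back-splice, so that one or more exons close into a ring without free ends. Such rings resist exonucleases and are long-lived, and many of those known in the brain come from genes of synapses, adhesion and the cytoskeleton. In the embryonic cortex, PP divide to expand, DP divide to give neurons, and N migrate to the cortical plate.

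Among the 91 circRNAs, 22 had every DP library below every PP and every N library. These 22 came from 19 genes: Ctnnd2, Fnip2, Gga1, Gramd4, Dgki, Schip1, Tusc3, Stau2, Adamts18, Adamts3, Foxp1, Wdr7, Zfp704, Smyd2, Slc8a3, Slc7a1, Mea1, Rabgef1 and Ttc13. Over all 4291 circRNAs, 33 had this separation, which was 0.769%, and since the choice of members used the same means the larger share among the members carries no weight. The back-splice junctions of 9 of the 10 with the highest mean count, one for each gene, are shown because the junction is the sequence that the ring has and the linear transcript lacks. Each line gives the last 15 bases of the closing exon in lower case and the first 15 bases of the opening exon in capitals, 5′ to 3′ on the gene's strand, read from the mouse genome NCBIM37 (mm9).

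circCtnnd2 (CiCo_mm9_circ_002032): tcagaaagaccccagGGCACGACCGGCCGC
circFnip2 (CiCo_mm9_circ_004113): gagtgtggtgctgggTTGGTCGTGTTCGGA
circGramd4 (CiCo_mm9_circ_002204): aaaagcactttcttcGGAGCCTCCCCGTCA
circDgki (CiCo_mm9_circ_005431): gcctttgctcaatgaAACTTTGTGCGTCAC
circSchip1 (CiCo_mm9_circ_004105): accaactccacctctGATTACCGAGAGGAT
circTusc3 (CiCo_mm9_circ_006222): cacaatggacaagtgGCAGGCTAACGAAGA
circStau2 (CiCo_mm9_circ_000141): catgtacaatcagagTTTTGTGGAGCTGTG
circAdamts18 (CiCo_mm9_circ_006088): acgctggtctttgaaGACATTTGCAAGTCA
circAdamts3 (CiCo_mm9_circ_005229): aactgtgatggtctgATTTACCAACAAAGA

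All 9 were flanked in the genome by AG before the opening exon and GT after the closing exon, the letters of splice acceptors and donors. So were all 91 members and 4290 of the 4291 circRNAs, so these letters do not set the members apart. In mm9, circCtnnd2 lay at chr15:30576524-30613225 on the plus strand (exons 7 to 9 of the matched transcript) and circFnip2 at chr3:79266051-79322113 on the minus strand (exons 2 to 16). circGramd4 lay at chr15:85921743-85931330 on the plus strand (exons 2 and 3), circDgki at chr6:36950042-37037694 on the minus strand (exons 6 to 20) and circSchip1 at chr3:68298496-68299179 on the plus strand (exon 2 alone). circTusc3 lay at chr8:40126245-40160068 on the plus strand (exons 3 to 6) and circStau2 at chr1:16430404-16499489 on the minus strand (exons 3 to 5). circAdamts18 lay at chr8:116260581-116278559 on the minus strand (exons 11 to 16) and circAdamts3 at chr5:90290324-90290730 on the minus strand (exon 3 alone). Of these 9, circStau2 held the start codon, and the other 8 lay within coding exons.

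The 9 libraries differed in depth, and this set the precision of each value. A group of 27 entries, CiCo_mm9_circ_004999 and 26 overlapping entries on chromosome 17, took between 94.7% and 98.2% of the counts of a library and was left out of the totals. The remaining counts summed to between 83572 and 198114 in PP, 269894 and 287374 in DP and 102958 and 287983 in N. One count was therefore worth 3.47 CPM in N replicate 2 and 12.0 CPM in PP replicate 3, the shallowest library, and the median mean count of the members was 16.4. The defining linear markers Pax6, Sox2, Eomes and Tubb3 have no circRNA in the table, so the sorted identities could not be checked with them. The summed CPM of 45 circRNAs from newborn neuron marker genes ranged from 1770 to 2465 in PP, 5584 to 8023 in DP and 22731 to 23162 in N. For 13 circRNAs from DP marker genes it ranged from 2589 to 5026 in PP, 9107 to 11339 in DP and 10917 to 26185 in N, so the DP list was not highest in DP. The 64 circRNAs of radial glia genes stayed between 33992 and 44903 in all 9 libraries, and no circRNA came from the 15 endothelial and mural genes. The 3 circRNAs of the interneuron list, all from 1 gene, summed to 0, 5.05 and 59.8 CPM in PP, 0, 0 and 7.27 CPM in DP and 136, 201 and 95.7 CPM in N. Their mean was lowest in DP and, within PP, replicate 3 was highest. These PP and DP values rested on few reads, since 1 count was worth 12.0 CPM in PP replicate 3 and 5.05 CPM in PP replicate 2. The 7 of the microglia and blood list came from only 2 of its 15 genes, Epb4.1 and Tfrc. They ranged from 2106 to 3943 CPM in PP, 2338 to 2951 CPM in DP and 1476 to 2323 CPM in N. The markers Cx3cr1, Csf1r, Ptprc and Hba-a1 have no circRNA in the table, so these cells could not be looked for with them. The part of these lists in the members' levels was not tested.

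The summed level of the 91 members was 12560, 12861 and 25571 CPM in the 3 PP libraries, 8786, 9118 and 9063 CPM in the DP libraries and 23913, 16695 and 16300 CPM in the N libraries. The DP libraries lay close together, whereas PP replicate 3 and N replicate 1 stood well above the other libraries of their own cell type. They were also the shallowest of all libraries, with 83572 remaining counts in PP replicate 3 and 102958 in N replicate 1. PP replicate 3 was the highest PP library for 62 of the 91 members (68.1%), against 31.6% of all 4291 circRNAs. N replicate 1 was the highest N library for 43 members (47.3%), against 27.99% of all. Both held for 34 members (37.4%), against 13.2% of all. The same pair of libraries was also the highest of its cell type for the DP marker list, at 5026 CPM in PP replicate 3 and 26185 CPM in N replicate 1. This did not hold for the other lists with circRNAs. PP replicate 3 was the lowest PP library for radial glia (39260 CPM) and for microglia and blood (2106 CPM). N replicate 1 was not the highest N library for newborn neurons (23009 CPM) or interneurons (136 CPM). The part of these libraries' make-up and depth in the members' ratios was not tested.

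Left out of the PP mean, PP replicate 3 changed many of the ratios. The median DP/PP of the members was 0.557 with all 3 PP libraries and 0.804 with the other 2. Without PP replicate 3, 39 members kept a DP/PP of 0.67 or less, 52 did not, and 26 of these had a DP/PP of 1 or more. PP replicate 3 made up a median of 64.2% of the summed PP level in the 52, of 31.7% in the 39 and of 27.5% over all circRNAs. Of the 22 members with separated libraries, 19 kept the ratio, and circGga1 (0.861), circStau2 (0.811) and circWdr7 (0.70) did not. When N replicate 1 was left out as well, 35 members of 28 named genes and 1 region without a gene met both ratios.

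**Figure D1:**
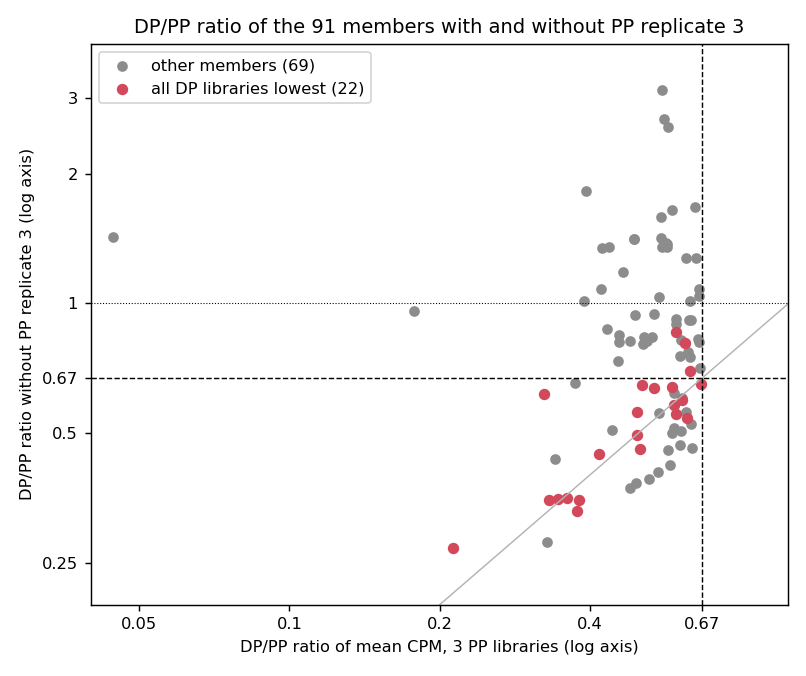
DP/PP ratio of mean CPM for each of the 91 members, with all 3 PP libraries (horizontal log axis) and without PP replicate 3 (vertical log axis); dashed lines mark 0.67, the dotted line marks 1 and the grey line equality. Of the 22 members with all DP libraries lowest (red), 19 stay at or below 0.67, and 26 other members lie at or above 1 without that library.

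**Figure D2:**
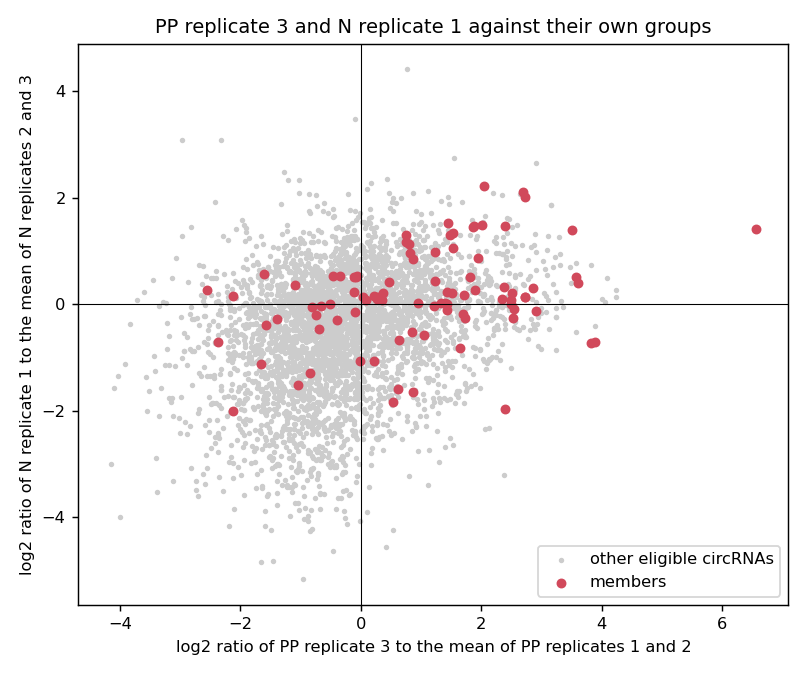
Log2 ratio of PP replicate 3 to the mean of the other PP libraries (horizontal axis) and of N replicate 1 to the mean of the other N libraries (vertical axis) for the 3987 circRNAs with both ratios above 0, members in red and other circRNAs in grey. On the linear scale the PP ratio had a median of 2.06 in the members and of 0.757 over all 4291 circRNAs, and 74 of the 91 members lie to the right of the latter.

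The members that were low in every DP library are described first, by the role of their genes. Ctnnd2 encodes delta-catenin, an adhesion protein of neurons. circCtnnd2 (CiCo_mm9_circ_002032) was at 772, 737 and 718 CPM in PP, at 355, 400 and 560 CPM in DP, and at 1039, 712 and 743 CPM in N. The highest DP library thus lay under the lowest PP and N libraries, and the means were 742 ± 27.7, 438 ± 108 and 831 ± 181 CPM (SD, n = 3). A second ring of the gene, CiCo_mm9_circ_002031 from exons 6 to 8, shared exons 7 and 8 with it and so shared reads, and its means were 642 ± 27.6, 429 ± 95.7 and 848 ± 200 CPM (SD, n = 3).

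The adhesion and extracellular matrix genes Adamts18 and Adamts3 encode secreted metalloproteases. circAdamts18 (CiCo_mm9_circ_006088) was at 121, 162 and 108 CPM in PP, at 48.7, 63.0 and 36.4 CPM in DP, and at 87.4, 97.2 and 118 CPM in N. A shorter ring inside it, CiCo_mm9_circ_006087 from exons 13 to 16, had means of 99.8 ± 29.6, 36.0 ± 9.14 and 72.7 ± 16.6 CPM (SD, n = 3) in PP, DP and N, with no overlap between its DP libraries and the others. circAdamts3 was at 40.2, 80.8 and 59.8 CPM in PP, at 31.3, 22.2 and 36.4 CPM in DP, and at 87.4, 194 and 173 CPM in N, so its N libraries were also above all PP libraries.

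Schip1 encodes a protein that binds schwannomin, the product of the neurofibromatosis type 2 gene. circSchip1 was at 193, 156 and 203 CPM in PP, at 73.1, 51.9 and 58.2 CPM in DP, and at 107, 240 and 205 CPM in N. The PP and N means were nearly equal, at 184 ± 24.7 and 184 ± 68.9 CPM, and the DP mean was 61.0 ± 10.9 CPM (SD, n = 3). Tusc3 encodes a subunit of the oligosaccharyltransferase that glycosylates proteins in the endoplasmic reticulum. circTusc3 (CiCo_mm9_circ_006222) was at 145, 131 and 215 CPM in PP, at 66.1, 92.6 and 105 CPM in DP, and at 117, 205 and 164 CPM in N. Its DP and N libraries came close, with 105 CPM as the highest DP and 117 CPM as the lowest N value.

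Gga1 encodes a clathrin adaptor of the Golgi, and Fnip2 a partner of folliculin in nutrient signalling. circGga1 (CiCo_mm9_circ_002132) was at 145, 131 and 323 CPM in PP, at 129, 119 and 109 CPM in DP, and at 350, 153 and 200 CPM in N. Its lowest PP library exceeded the highest DP library by only 2.49 CPM, less than the 3.48 CPM that 1 count was worth in that DP library. circFnip2, a ring of 15 exons, was at 290, 268 and 168 CPM in PP, at 167, 145 and 142 CPM in DP, and at 243, 260 and 296 CPM in N. Here PP replicate 3 was the lowest PP library and lay only 0.490 CPM above the highest DP library.

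Gramd4 encodes a GRAM domain protein, and Stau2 a double-stranded RNA-binding protein that transports mRNAs in neurons. circGramd4 was at 290, 172 and 168 CPM in PP, at 97.4, 88.9 and 131 CPM in DP, and at 233, 153 and 169 CPM in N. circStau2 (CiCo_mm9_circ_000141) was at 113, 85.8 and 191 CPM in PP, at 80.0, 77.8 and 83.6 CPM in DP, and at 126, 139 and 109 CPM in N, and its lowest PP library was within 1 count of the highest DP library. Foxp1, a forkhead transcription factor, and Zfp704, a zinc finger protein, gave the 2 rings of transcription genes with every DP library lowest. circFoxp1 had means of 115 ± 23.5, 48.1 ± 3.4 and 81.9 ± 17.3 CPM in PP, DP and N, and circZfp704 (CiCo_mm9_circ_004187) of 82.7 ± 27.1, 31.2 ± 4.63 and 88.9 ± 7.71 CPM (SD, n = 3).

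**Figure D3:**
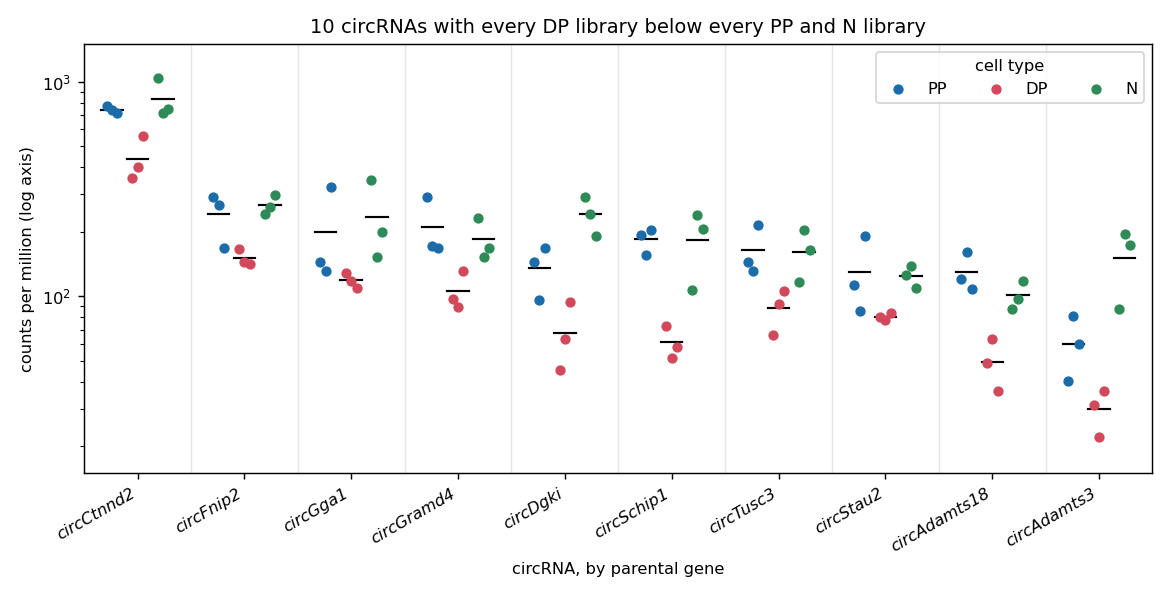
CPM (log axis) in each library for the 10 members with the highest mean count among those with all DP libraries lowest, one per gene; points are the 3 libraries each of PP (blue), DP (red) and N (green), in replicate order from left to right, and black lines are means. In each of the 10 the red points lie below all blue and green points.

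The levels of the members were modest. On the RPKM scale, CPM per kilobase of counted length, the median member was at 203 and the median of the 4291 circRNAs at 230, averaged over the 9 libraries. circPtprz1 (CiCo_mm9_circ_005387), from the receptor phosphatase Ptprz1 of radial glia, had the highest CPM of the members and was the longest, with 8313 counted bases over exons 12 to 14. It was at 2615, 2847 and 1520 CPM in PP, at 734, 1008 and 549 CPM in DP, and at 660, 1903 and 1349 CPM in N. All PP libraries lay above all DP libraries, whereas N replicate 1 fell within the DP range. Per length it was not the highest, at 176 RPKM, against 1965 RPKM for CiCo_mm9_circ_004628, a ring of exon 10 of the zinc finger gene Zfp462.

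circNkain1 and 2 other abundant members followed PP replicate 3 and N replicate 1. circNkain1, from a gene whose product binds the sodium-potassium pump, was at 185, 151 and 1089 CPM in PP, at 244, 245 and 345 CPM in DP, and at 1671, 354.2 and 419 CPM in N. circRaly, from a gene of a heterogeneous nuclear ribonucleoprotein, was at 620, 485 and 2285 CPM in PP, at 518, 848 and 749 CPM in DP, and at 2525, 514 and 565 CPM in N. circZfp462 (CiCo_mm9_circ_004627) was at 628, 671 and 1771 CPM in PP, at 752, 637 and 640 CPM in DP, and at 2273, 760 and 825 CPM in N. Without PP replicate 3 their DP/PP ratios were 1.65, 1.28 and 1.04, and none had a lower mean in DP than in the other 2 PP libraries.

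The members with the fewest DP counts rested on few reads. circPtprn2 (CiCo_mm9_circ_001287), from a dense-core vesicle phosphatase gene, had 0, 1 and 20 counts in PP, 1 count in each DP library, and 20, 25 and 13 counts in N. Its high PP level was thus that of PP replicate 3 alone. circSlc8a3, from a sodium-calcium exchanger gene, had 2 counts in each PP library, 2, 1 and 0 counts in DP, and 5, 48 and 30 counts in N, and was not tested because of its low counts. Over all members, 55 had a mean count under 20 and 36 had at least 20, whereas 2560 of the 4291 circRNAs had at least 20. The median mean count was 16.4 in the members and 24.7 over the 4291. In 3 members a library had 0 counts, and the share over all circRNAs is not given here. At the shortest end, circUbe2o, circGigyf2 and circMap4k3 had 131, 155 and 172 counted bases, and their DP/PP ratios without PP replicate 3 were 1.59, 1.35 and 0.820.

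N was compared with PP, which the selection did not threshold although it used the same library means. With edgeR's quasi-likelihood test in one model over the 9 libraries, 85 members were tested, and 9 of them (10.6%, from 9 genes) rose in N versus PP at an adjusted p under 0.05, whereas 13.7% of the 4406 circRNAs tested did so. None fell, against 14.4% of all circRNAs tested, and none had an unadjusted p under 0.05 in that direction or fell in DESeq2. The N/PP ratio of means lay between 0.67 and 1.5 for 72 of the 91 members (79.1%), with a median of 1.06, and for 43.6% of all 4291 circRNAs, with a median of 0.858. The selection required both PP and N to lie above DP on these means, which draws N/PP towards 1, so nothing is read from this difference, and the counts of calls are shaped by it too.

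Snap91 encodes a clathrin assembly protein of presynaptic terminals. circSnap91 was at 8.05, 15.1 and 23.9 CPM in PP, at 13.9, 11.1 and 3.64 CPM in DP, and at 146, 188 and 246 CPM in N, a log2 FC in N versus PP of 3.82 (SE 0.49, edgeR adjusted p = 5.91e-05). circRunx1t1, from a transcriptional corepressor gene on the newborn neuron marker list, was at 8.05, 25.2 and 95.7 CPM in PP, at 13.9, 37.1 and 32.7 CPM in DP, and at 359, 455 and 401 CPM in N. Its log2 FC was 3.60 (SE 0.56, edgeR adjusted p = 0.000256). circPlxnd1, from the semaphorin receptor gene Plxnd1, was at 24.1, 15.1 and 35.9 CPM in PP, at 3.48, 18.5 and 3.64 CPM in DP, and at 233, 90.3 and 169 CPM in N, a log2 FC of 2.95 (SE 0.64, edgeR adjusted p = 0.00308). In these 3 the DP and PP libraries overlapped, and what set them apart was the high level in N. Their PP and DP levels rested on few reads. circSnap91 had 1, 3 and 2 counts in PP and 4, 3 and 1 counts in DP. circPlxnd1 had 3 counts in each PP library and 1, 5 and 1 counts in DP. circRunx1t1 had 1, 5 and 8 counts in PP and 4, 10 and 9 counts in DP.

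The other 6 that rose in N were circEpb4.1l1 (a membrane skeleton protein), circNin (ninein, which anchors microtubules at centrosomes), circSobp, circGrin2b (an NMDA receptor subunit), circSrgap1 (a GTPase activator downstream of Slit and Robo) and circAdamts3. Their log2 FCs in N versus PP ranged from 1.46 for circAdamts3 (SE 0.38, edgeR adjusted p = 0.00983) to 2.83 for circEpb4.1l1 (SE 0.64, edgeR adjusted p = 0.00417). circGrin2b was at 0, 15.1 and 108 CPM in PP, at 3.48, 11.1 and 7.27 CPM in DP, and at 87.4, 139 and 150 CPM in N, so that PP replicate 3 alone reached the N range. circAdamts3 was the only one of the 9 whose DP libraries all lay below all PP libraries. A DP/PP of 0.67 or less remained in 4 of the 9 without PP replicate 3.

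The count of members higher in N depended on PP replicate 3, since 35 of 90 members tested (38.9%) passed the same test when it was left out, against 18% of the 4693 circRNAs tested then. Left out, the library turned the members' share from below to above that of all circRNAs, and the members had been selected with its values in the PP mean. It was between 7 and 11 when any other single library was left out. At the lower end, circPtprz1 had a log2 FC in N versus PP of -0.71 (SE 0.35, edgeR adjusted p = 0.155), and no member was called lower in N.

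**Figure D4:**
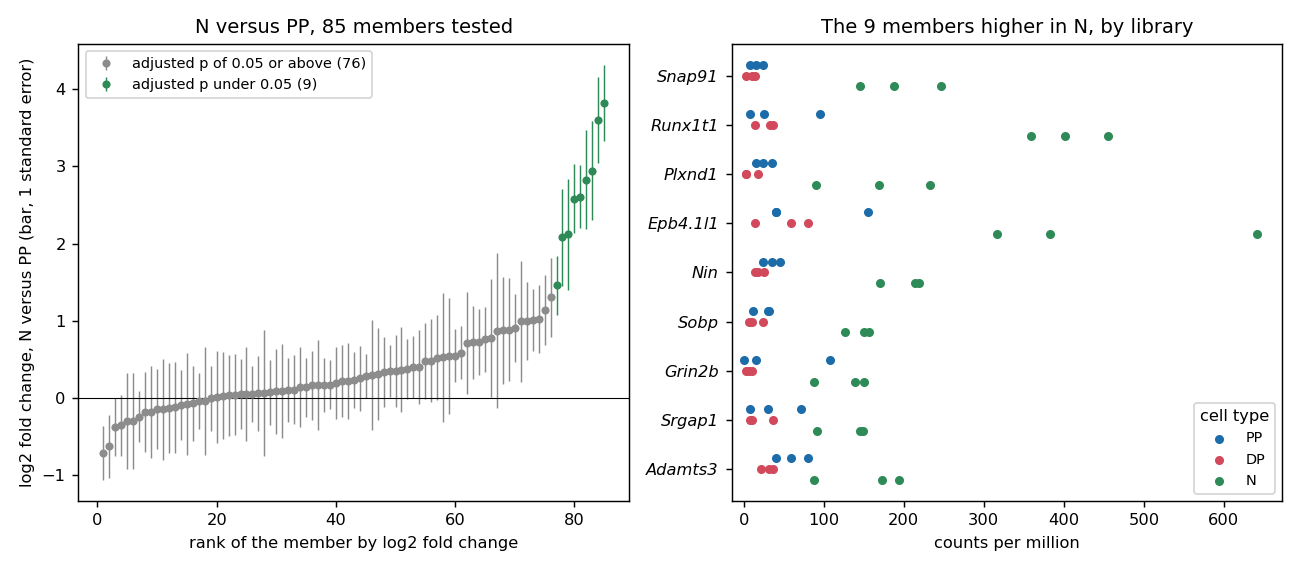
Left, log2 FC in N versus PP of the 85 members tested, by rank, with bars of 1 standard error and the 9 with an adjusted p under 0.05 in green. Right, CPM in each PP (blue), DP (red) and N (green) library of those 9, where all N libraries lie above all DP libraries and, except in Grin2b, above all PP libraries.

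The steps used by the selection are given without a reading. In DP versus PP, 3 members had an adjusted p under 0.05, circPtprz1 (CiCo_mm9_circ_005387, 0.0315), circSchip1 (0.0278) and circAdamts18 (CiCo_mm9_circ_006088, 0.0494), by edgeR, and 0.386% of all circRNAs tested were called lower in DP. This count fell to 0 when PP replicate 1 or 2, any 1 DP library or N replicate 3 was left out. In N versus DP, 29 members were called higher in N, and 9.03% of all circRNAs tested were. The count was 57 without PP replicate 3, 17 without DP replicate 2 and 19 without DP replicate 3. In both steps together, circSchip1 (0.00152 in the second step) and circAdamts18 (0.0232) were called. By overlap alone, all DP libraries lay below all PP libraries in 26 members, with 7.08% of all circRNAs, and below all N libraries in 66 members, with 14.5% of all circRNAs.

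Members just inside and just outside each limit differed little. Just inside a DP/PP of 0.67 were circCtnnd2 (CiCo_mm9_circ_002031, 0.668) and circVps33a (0.664), and just outside were circEhbp1 (0.673) and circRdh13 (0.678). Just inside an N/DP of 1.5 were circVps33a (1.501) and circTelo2 (1.511), and just outside were circTxndc11 (CiCo_mm9_circ_002260) and circNtrk2, both at 1.486. By mean count, circTtc13 (8.11) and circErc1 (8.22) were inside. The ring CiCo_mm9_circ_001424 of Nin, with a DP/PP of 0.438, and circWrb, with a DP/PP of 0.585, were outside by their mean count alone.

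The members came from 69 genes, of which 54 had 1 member and 15 had 2 or more, while 1 member had no annotated gene. Rings of one gene often overlapped and shared reads. The 91 members fell in 71 regions without overlap, and 14 of these regions held 34 members. The 2 rings of Fam114a2, which differed by 3 bases at one end, had identical counts in all 9 libraries and are 1 measurement. Dgki, which encodes diacylglycerol kinase iota, gave 4 members, the most of any gene, and all 4 of its circRNAs were members.

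The 4 Dgki rings overlapped in part. CiCo_mm9_circ_005431 was at 145, 95.9 and 168 CPM in PP, at 45.2, 63.0 and 94.5 CPM in DP, and at 291, 243 and 191 CPM in N, so the DP libraries lay under the others and the N libraries above all. The other 3 ended at the same base and had DP/PP ratios of 0.390, 0.455 and 0.532, with means in DP of 25.1, 37.0 and 44.2 CPM. In these 3 at least 1 DP library reached the PP libraries, and their DP/PP without PP replicate 3 was 1.02, 0.735 and 0.836. N/DP was between 3.09 and 3.58 over the 4, and N versus PP was not called in any of them. For the first ring it had a log2 FC of 1.01 (SE 0.40, edgeR adjusted p = 0.0771).

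**Figure D5:**
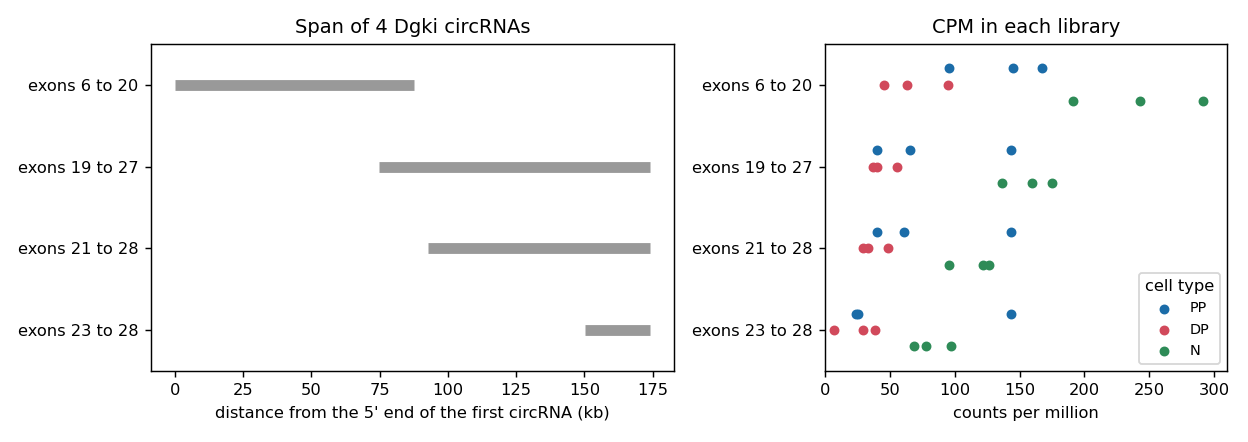
Left, span of the 4 Dgki members in kb from the 5′ end of the first, with the exon numbers of each ring's matched transcript, which is another transcript for the second ring. Right, CPM in each PP (blue), DP (red) and N (green) library, where the N libraries are highest in the first ring and PP replicate 3 lies far above the other PP libraries in the other 3.

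Other genes with several members split between those that did and did not depend on PP replicate 3. The 2 rings of Adamts18, of Ptprz1, of Zfp704, of Ctnnd2, of Tusc3 and of Dym kept a DP/PP of 0.67 or less without it, with ratios from 0.280 in Ptprz1 to 0.652 in Ctnnd2. Those of Rps6ka5 (a nuclear kinase; 1.35 and 1.82), Med13l (a Mediator subunit; 1.08 and 1.18), Arhgap32 (1.35 to 1.42), Zfp462 (1.04 to 1.08) and Fam114a2 (1.41) were above 1. The rings of Cabin1, an inhibitor of calcineurin, and of Stau2 lay between, at 0.756 to 0.827 and 0.804 to 0.917, and those of Rabgef1 were at 0.616 and 0.872.

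The genes of all members, with 1 or several, had 53 further circRNAs that were not members, of which 41 had enough counts to be classed. The 21 that overlapped a member had a median DP/PP of 0.716 and a median N/DP of 1.49, and share reads with it. The 20 that overlapped none had medians of 0.856 and 1.32, and 11 of them (55.0%) were lower in DP than in both PP and N by their means. Over the 4200 circRNAs that were not members, the medians were 1.001 and 0.865, and 14.9% were lower in DP than in both. These values come from the same libraries, so they are not independent of what set the members. The rings of Med13l outside the members went the other way, with DP/PP of 1.68 and 1.75.

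The parental genes were also grouped by 10 lists of function, in which 49 of the 91 members fell. The lists matched patterns in gene symbols, so a listed gene need not have the named role and others with it can be missed. Synapse and ion channel genes gave 9 members from 6 genes (Cacna1c, Dgki, Erc1, Grin2b, Kcnh7 and Snap91), 9.89% of the members against 2.12% of the 4291 circRNAs. Adhesion, axon guidance and extracellular matrix genes gave 8 from 5 genes (8.79% against 3.22%), and 5 of the 8 had all DP libraries lowest. Since rings of one gene share reads, and since 4 of the 9 synaptic rings are from Dgki, these shares are a description. In N versus PP, 40 of the 85 tested circRNAs of the synapse list rose and 6 fell, and 41 of 139 of the adhesion list rose and 38 fell.

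Kinase, phosphatase and GTPase genes gave 10 members from 6 genes (10.99% against 7.41%) and none with all DP libraries lowest. Membrane traffic and transport genes gave 9 members from 8 genes (9.89% against 6.04%), among them circRab6b, from a neuronal Rab GTPase of the Golgi, at 193, 90.9 and 467 CPM in PP, 136, 133 and 135 CPM in DP and 330, 288 and 301 CPM in N. Its DP libraries spanned 2.33 CPM, but PP replicate 2 was below them. circSlc7a1, from a cationic amino acid transporter gene, was at 96.6, 60.6 and 83.8 CPM in PP, at 24.4, 25.9 and 32.7 CPM in DP, and at 48.6, 41.7 and 50.1 CPM in N, with every DP library lowest. Chromatin and transcription genes gave 9 members from 5 genes (9.89% against 10.5%), and 2 of the 9 had all DP libraries lowest.

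The remaining lists gave few or no members. Members made up only 2.12% of all circRNAs with enough counts, so lists of this size would hold few at that share. The low counts are therefore a description. None of the 143 circRNAs from cell cycle, DNA replication and repair genes (3.33% of all) was a member. In N versus PP, 58 of the 151 tested from this list fell and none rose. None of 56 from mitochondria and metabolism genes (1.31% of all) was a member. In N versus PP, 5 of 57 tested from that list rose and 11 fell. The centrosome, spindle and microtubule list gave 2 members of 141 (circNin and circTtc13), 2.20% of the members against 3.29% of all. The RNA-binding and splicing list gave 1 of 173 (circEif2ak4), 1.10% against 4.03%. Stau2 and Raly, whose rings are described above, are not matched by that list. The ubiquitin list gave 3 of 196 (circKlhl17, circSenp7 and circUbe2o), 3.30% against 4.57%. circSenp7, from a SUMO protease gene, was at 88.5, 116 and 71.8 CPM in PP, at 73.1, 55.6 and 43.6 CPM in DP, and at 126, 146 and 105 CPM in N, where PP and DP overlapped in 1 library of each. Among the cell type lists, the radial glia list held 3 members (from Ptprz1 and Schip1), the newborn neuron list 2 (from Runx1t1 and Tle4), and the DP, interneuron, and microglia and blood lists none.

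In structure the members resembled the other circRNAs. Both ends lay on annotated exon ends in 88 of the 91 (96.7%), against 98.4% of the 4291. The median member had 466 counted bases and 3 exons, against 533 bases and 3 exons over all, and 80 members (87.9%) had under 1000 bases against 79.9%. Among those with exons assigned, 25 (28.4%) began at exon 2 against 32.1%, 9 (10.2%) had 1 exon against 8.32%, and 12 (13.6%) held the start codon against 16.3%. None held a stop codon, against 2.20% of all, and 2, both of Med13l, lay wholly in untranslated sequence. Chromosome 6 gave 12 members of 224 (5.36%), with the 4 of Dgki and 2 of Ptprz1 among them, against 2.12% overall. Of the members, 11 are among the circRNAs for which the study lists divergent primers or clones, including those of Ptprz1, Gga1, Gramd4, Dgki, Tusc3, Lmtk2, Adamts18 and Zfp704.

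Classed with the same limits in the opposite direction, 91 circRNAs were higher in DP than in both PP and N, the same number as were lower. Of those, 54 had every DP library above every PP and N library, against 22 for the members. The share over all circRNAs is not given for the 54. Every DP library was deeper than every PP library (269894 to 287374 counts against 83572 to 198114). A circRNA high in DP thus reaches the limit on counts more easily, so these numbers are not read against each other. PP replicate 3 was the lowest PP library for 53 of the 91 transiently high circRNAs. It was the highest for 62 of the members, 68.1% against 31.6% of all circRNAs. The share of all circRNAs with PP replicate 3 lowest is not given. Over all circRNAs its ratio to the mean of the other PP libraries had a median of 0.757, so it tended to lie below them. The 53 is therefore not read as a counterpart of the 62. Without PP replicate 3, 62 of the transiently high circRNAs and 39 of the members kept their DP/PP limit.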

How the data were processed

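The authors sorted PP, DP and N, treated total RNA with RNase R, mapped the reads to mm9 with gsnap, and called back-splices in the reads left unmapped with find_circ. With featureCounts (Subread 1.6.0, after bcl2fastq 1.8.4, per the submitters' processing notes) they counted reads over the expressed features of each circRNA and summed them. The deposited file gives these raw counts for every circRNA in each library, so reads are not limited to the back-splice junction, and overlapping circRNAs share them. Exon reads of any linear RNA left after RNase R would be counted too, and their part was not tested. The paper reports that the treatment brought the linear transcripts it assayed to undetectable levels.

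The members and lists were chosen with earlier results of these data known. CPM was computed over the column sums without 27 entries of very high counts, and RPKM from CPM and the counted length in the deposited table. Ends were matched to GENCODE vM1 exons on NCBIM37. Contrasts were tested with edgeR 4.0.16 (R 4.3.3, filterByExpr, TMM, quasi-likelihood test, Benjamini-Hochberg adjustment over the 4406 circRNAs tested, threshold 0.05) in one model over the 9 libraries. The steps were tested on simulated data. Alternatives were DESeq2 1.42.0, other scalings, filters and sets of libraries, and a replicate block. Those that leave out PP replicate 3 and N replicate 1 together, or PP replicate 3 from each member's PP mean, were chosen after seeing the data.

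Genes were named by rule: the 10 with the highest mean count among those with all DP libraries lowest, the 5 highest CPM, the 3 longest and 3 shortest, those called in both steps, the 3 largest changes each way in N versus PP, those beside each limit, those with primers or clones, up to 4 of each gene list, and the 5 genes with most members. Ptprn2, Slc8a3, Slc7a1, Wdr7, the other members called in N versus PP, and the remaining genes with several members were named after their values were seen. The junction of circGga1 is not reported here.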

Additional observations from a re-analysis of the deposited data

How the results depend on the processing

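The number of members changed with the scaling and the limits. Scaled by TMM, 141 circRNAs met the limits, with all 91 members among them, and with the 27 high-count entries in the totals 40 did, 38 of them members. Relative to the main scaling, the median log2 N/DP of all circRNAs moved by 0.17 under TMM and by -0.17 with those entries. With a mean count of at least 20 there were 36 members and with a DP/PP of at most 0.5 and an N/DP of at least 2 there were 19. Medians in place of means gave 94, of which 46 were members. Leaving out 1 library gave between 64 (without PP replicate 3, 39 of them members) and 118. With the high-count entries in the totals, all DP libraries lay lowest in 6, only 3 of them among the 22 of the main scaling. Under TMM they lay lowest in 22, of which 19 were among those 22. When 1 library was left out, they lay lowest in 22 to 32 members. The median log2 N/PP of the members was 0.08, moving to 0.28 under TMM, 0.33 with medians, 0.42 without PP replicate 3 and N replicate 1, and from -0.077 to 0.66 when 1 library was left out.

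Over all circRNAs, 82 were called in DP versus PP, 830 in N versus DP and 1236 in N versus PP. Column totals as library sizes gave 22, 407 and 649, and at least 10 counts in every library gave 12, 134 and 282, where fewer circRNAs were tested. With only the cell types compared, N versus PP gave 735. Leaving out 1 library gave 37 to 183, 554 to 1239 and 984 to 1638, and leaving out PP replicate 3 and N replicate 1 gave 659, 1600 and 1988. The causes were not tested.

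Of the members, the 3 lower in DP than in PP became 0 with column totals, 1 with at least 10 counts in every library, 0 to 3 when 1 library was left out and 13 without PP replicate 3 and N replicate 1. The 29 higher in N than in DP became 10, 5, 17 to 57 and 53 in the same order. The 9 higher in N than in PP became 0 with at least 10 counts in every library, 7 to 35 when 1 library was left out, and 35 without those 2 libraries. Without those 2, 1 member was called lower in N than in PP, against 0 in each of the other settings. circSnap91, circRunx1t1 and circPlxnd1 rose in N versus PP in every setting that tested them.

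Replicate numbers are shared by the labels alone. Deviations of same-numbered libraries correlated between -0.22 and 0.25, so the numbers were not taken as pairs. With a replicate block, 48 circRNAs were called in DP versus PP, 695 in N versus DP and 1061 in N versus PP, and of the members 1, 23 and 9.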
